A study of Arabidopsis thaliana with 12 samples.

Results

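The regions described here have their summit between genes and next to a single one, while their edges can reach into that gene. They are stretches of chromatin where a tagged DELLA protein was enriched in both replicates of Arabidopsis inflorescences, where untagged plants gave no peak, and whose summit lay outside every protein-coding gene and within 1000 bp of exactly 1 of them. There were 1715 such regions among 5755 nuclear regions, a share of 29.8% (95% Wilson interval 28.6% to 31.0%). The members were chosen by the peaks, scores and summits of the gai-YPet lists and the peaks of the untagged control, so the members' values in those lists are given as a description with no test.

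All plants were Landsberg erecta (Ler). The untagged control carried no transgene. The gai-YPet plants carried pGAI:gai∆17-3xYPet, a GAI protein with a short deletion, fused to a yellow fluorescent tag and driven by the promoter of GAI itself. The third genotype carried the same transgene in the cuc2-1 mutant of CUC2, a NAC transcription factor that sets the boundaries between floral organs. Inflorescences were taken from the main stem of mature plants, without the open flowers and the oldest buds. Each genotype had 2 biological replicates of 1.8 g of tissue, and the plants were kept at 22 °C in 16 h of light and 8 h of dark. Each replicate had 1 ChIP library, made with an antibody to GFP, and 1 input library. Whole inflorescences mix many tissues, and the tagged protein was made where the GAI promoter is active, so a peak cannot be placed in a cell type.

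DELLA proteins are nuclear repressors of gibberellin responses. Gibberellin, bound to a GID1 receptor, marks them for degradation, and forms without the DELLA motif escape this. They do not bind DNA on their own but are brought to chromatin by transcription factors, among them INDETERMINATE DOMAIN (IDD) zinc-finger proteins, PIFs, TCPs and SPLs, so a ChIP peak of a DELLA marks where such a complex sits. In the compact Arabidopsis genome a region between genes often has a gene close by on both sides. A region with only 1 gene in reach can be paired with that gene by position, which is still no proof that the gene responds to it.

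The analysed lists, 1 per ChIP library and called for each replicate separately, were of unequal length. The gai-YPet lists held 7042 and 11289 peaks, those of the mutant 8193 and 3666, and the Ler lists 234 and 406. They carry no count of reads, which leaves library depth unknown, and a missing peak in a short list need not be a missing protein. Each peak carries a fold enrichment computed by the authors, here taken for the highest peak of a region in each list. Folds of different lists are set side by side but not compared in size, because the lists were scaled separately. The strength of a region is a percentile: its highest peak was ranked by q-value within each gai-YPet list, and the ranks of both replicates were averaged, with 100 as the strongest.

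The class was small in sequence and dense in regions. Bases outside every protein-coding gene and within 1000 bp of exactly 1 made up 14.0% of the nuclear genome and held 103 regions per Mb. The corresponding density was 94.2 per Mb between 2 or more close genes, 46.6 per Mb farther than 1000 bp from any gene, and 29.5 per Mb inside genes. Those 3 classes held 719, 1416 and 1905 regions. On the 5 chromosomes the members numbered 491, 285, 298, 251 and 390, and their density ran from 97.0 per Mb of such bases on chromosome 2 to 113 per Mb on chromosome 1.

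**Figure D1:**
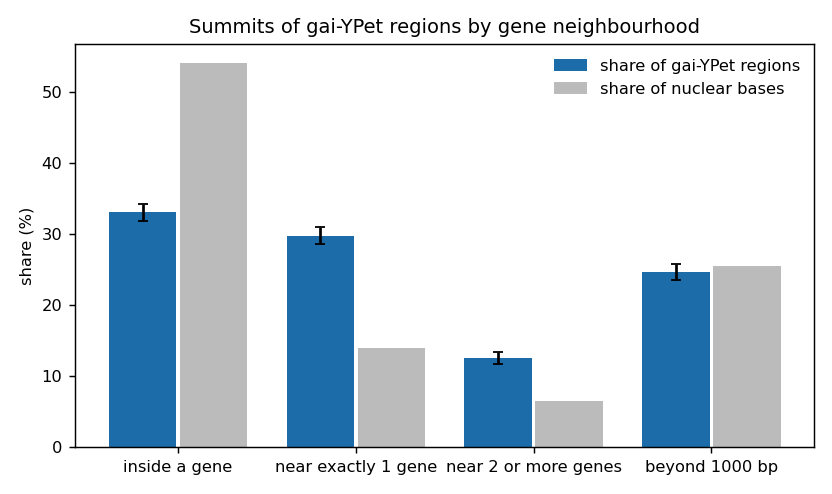
Bars give the share of the 5755 gai-YPet regions (blue, with 95% Wilson intervals) and of the nuclear bases (grey) in each of 4 classes of gene neighbourhood, in percent. Regions near exactly 1 gene were 29.8% of regions on 14.0% of bases, and regions inside a gene 33.1% on 54.1%.

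Within the 1000 bp that the rule allows, the regions were spread almost as the sequence is. The median distance from summit to gene edge was 420 bp, with the middle 50% of regions between 173 and 705 bp. Of the regions 56.5% lay within 500 bp, and of the bases that meet the rule 55.9%. The density was 126 per Mb in the first 100 bp, 113 in the next 100 bp, and between 86.7 and 116 in the bins beyond. The second nearest gene was at a median of 2199 bp. Regions in the strongest quintile of the members lay within 500 bp in 54.5% of cases and those in the weakest quintile in 60.3%. The gene table used here gives no strand, so the side of the gene on which a region lies was not analysed here.

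**Figure D2:**
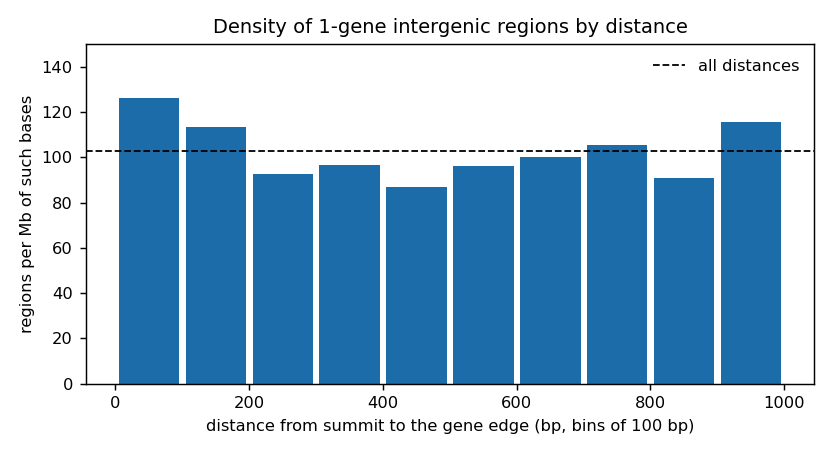
Regions per Mb of bases at each distance from the gene edge, in bins of 100 bp (bars), with the density over all distances (dashed line, 103 per Mb). The first bin stands highest at 126 per Mb and the others lie between 86.7 and 116.

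The limit of 1000 bp split regions that were alike in strength. Just inside it, the region near ZFP10, a zinc-finger protein gene, had its summit at 1000 bp and folds of 3.01 and 3.14 in the gai-YPet replicates. The regions near PSKR2, a receptor of the peptide phytosulfokine, and MYB47 both lay at 998.5 bp, with folds of 2.99 and 2.98 and of 2.62 and 3.02. Just outside, at 1003 bp, the region near PAO5, a polyamine oxidase gene, had folds of 3.01 and 2.59. The next ones out were at 1004 bp from AT5G03380 and 1005 bp from AT1G22600, with folds of 2.42 and 2.74 and of 2.78 and 3.38.

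The median width was 680 bp, with 10% below 372 bp and 10% above 1479 bp, against a median of 632 bp in the other regions. More than 1 peak of the first replicate was held by 204 regions (11.9%), against 9.26% of the other regions. Stronger regions were wider, from a median of 462 bp in the weakest quintile to 1050 bp in the strongest, which is a property of the merged peaks. The summits of the gai-YPet replicates lay a median of 25 bp apart, and within 50 bp in 76.9% of regions. In the 882 regions with a peak in all 4 tagged lists, summits of gai-YPet and gai-YPet cuc2-1 lists lay a median of 19 to 27 bp apart, against 22 bp between the gai-YPet replicates and 25 bp between the mutant ones. Between genotypes, 3.51% to 4.76% of these regions had summits over 200 bp apart, against 4.20% between the gai-YPet replicates and 4.54% between the mutant ones.

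The strongest region near a single gene lay 836 bp from AT4G04630, on chromosome 4 from 2333030 to 2334348 (build TAIR10). Its folds were 15.2 and 9.48 in gai-YPet replicates 1 and 2 and 11.9 and 8.85 in gai-YPet cuc2-1 replicates 1 and 2. The table gives this gene no name. Its strength was 99.99, and no other region of the class ranked higher.

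At DREB1A, a transcription factor of the cold response, the folds were 11.1 and 9.25 in gai-YPet and 11.7 and 6.78 in the mutant. The summit was 75 bp from the gene. The adjacent cold-response genes CBF1 and CBF2 each had a region of their own, with folds of 11.6 and 6.93 at CBF1 and of 6.07 and 7.09 at CBF2 in gai-YPet, and of 9.52 and 5.19 and of 6.63 and 4.79 in the mutant. CBF1 and CBF2 were chosen after their values were seen. Near ABO3, a WRKY factor of the abscisic acid response, the folds were 11.97 and 8.78 in gai-YPet and 7.62 and 5.30 in the mutant.

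The 12 also held regulators of flowering, growth and light responses. Near SPL4, a squamosa-promoter-binding protein that promotes flowering, the folds were 11.7 and 8.73 in gai-YPet and 10.3 and 7.21 in the mutant (chromosome 1, 19804787 to 19806791). Its summits lay near 19805200 in gai-YPet replicate 1 and near 19805900 in replicate 2, so the mean summit falls between 2 separate positions. With the summit of replicate 1 alone, SPL4 had no region in the class. Near ATH1, a BELL homeodomain protein that restrains stem growth, the folds were 12.8 and 8.71 in gai-YPet and 7.16 and 5.54 in the mutant (chromosome 4, 15917165 to 15919254). PIF6 encodes a phytochrome-interacting bHLH protein. At its region the folds were 10.1 and 7.58 in gai-YPet and 9.55 and 6.69 in the mutant.

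Of the same 12, IAMT1 and TAR2 act in auxin metabolism. Near IAMT1, which methylates the auxin indole-3-acetic acid, the folds were 12.9 and 9.31 in gai-YPet and 10.0 and 7.99 in the mutant. Near TAR2, an aminotransferase of auxin synthesis, they were 10.8 and 8.39 in gai-YPet and 8.07 and 5.28 in the mutant. The other strong regions lay near AT4G27240, AT3G02910, AT1G56030 and AT4G30250, with folds between 11.4 and 13.6 in gai-YPet replicate 1 and between 8.58 and 8.73 in replicate 2. Each of the 12 strongest regions had a peak in all 4 tagged lists. So did all 367 members in the top quintile of strength, and 49.8% of all regions. This is not particular to the class: of the 784 other regions in that quintile, 784 had a peak in mutant replicate 1 and 783 in replicate 2.

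**Figure D3:**
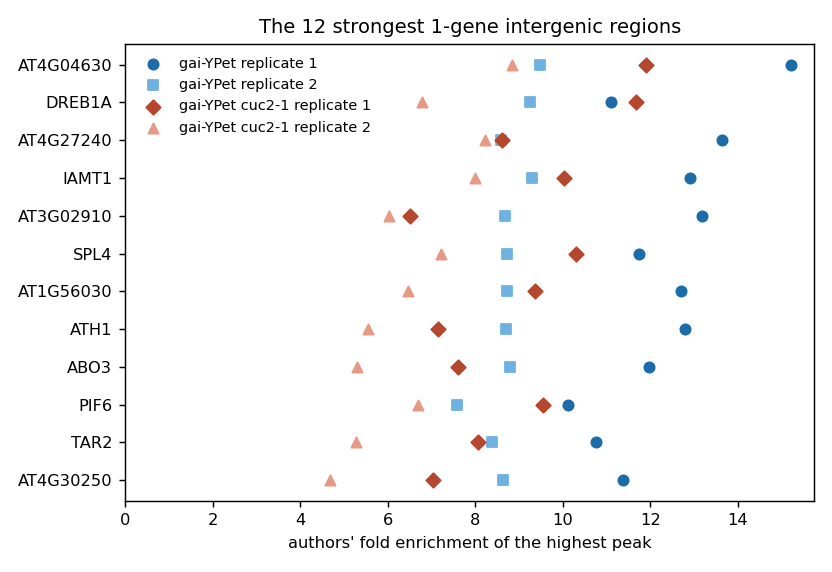
Authors' fold enrichment of the highest peak (x axis) at the 12 strongest regions near exactly 1 gene (y axis, named by the gene), in each of the 4 tagged lists. All 12 regions have a point in every list (49.8% of all regions have a peak in all 4), and AT4G04630 has the highest fold in gai-YPet replicate 1, at 15.2. In the top quintile of strength, 100% of the regions outside the class had a peak in mutant replicate 1 and 99.9% in replicate 2.

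At the other end, the 3 weakest regions had folds below 2 in both gai-YPet lists. They were near AT1G21080, with folds of 1.97 and 1.501, near AT2G07633, with 1.42 and 1.27, and near AT2G07722, with 1.51 and 1.32. The latter pair lay on chromosome 2. Over all members the fold in gai-YPet replicate 1 had a median of 3.52, with 10% below 2.47 and 10% above 6.67. In replicate 2 the median was 3.64, with 10% below 2.45 and 10% above 5.81.

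The 1715 regions belonged to 1633 genes, which is 5.95% of the 27444 protein-coding genes of the table. Of these genes 1551 had 1 region and 82 had 2. A region inside the gene or within 1000 bp of it, counted in any way, was found for 4948 genes (18.0%). Near GID1B, a gibberellin receptor, a broad region from 23285482 to 23290212 on chromosome 3 had folds of 6.68 and 5.59 in gai-YPet and 6.37 and 4.24 in the mutant. The other GID1B region, from 23291234 to 23292859, had folds of 9.38 and 7.28 in gai-YPet and 6.85 and 4.27 in the mutant. SMT2, a sterol methyltransferase, NAC019, a stress-responsive NAC factor, AT3G28040 and AT5G57123 also had 2 regions each, with strengths between 77.7 and 96.1.

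Listed genes of gibberellin signalling most often had a region of their own. The lists were drawn up with earlier results of these data known, and their counts are given beside the 5.95% over all genes with no test of the lists. Over the 21 lists, 128 of 567 genes (22.6%) had such a region. In the gibberellin signalling list it was 12 of 24 genes (50%, Wilson interval 31.4% to 68.6%), with 454 regions per Mb of eligible sequence against 103 over all genes. Eligible sequence is the part outside genes and within 1000 bp of that gene only. It differs between genes, and 60.1% of all protein-coding genes have any.

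Genes of the IDD family, whose products recruit DELLAs to DNA, were 8 of those 12 genes. IDD1, IDD2, IDD3, IDD4, IDD5, IDD14, IDD15 and IDD16 each had at least 1 region. At IDD14 the folds were 9.65 and 7.76 in gai-YPet and 6.52 and 4.29 in the mutant. At IDD4 they were 6.01 and 5.88 in gai-YPet and 5.30 and 4.06 in the mutant. Beside the receptor GID1B, its relative GID1C had a weaker region with folds of 3.01 and 3.22 in gai-YPet and 2.84 in mutant replicate 1, and no peak in mutant replicate 2. RGL1, a DELLA gene itself, had folds of 3.97 and 3.74 in gai-YPet and 2.77 in mutant replicate 1, again without a peak in mutant replicate 2.

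In gibberellin synthesis 3 of 14 genes had a region near them alone and in inactivation 2 of 11. GA20OX2, a late enzyme of the synthesis, had folds of 8.41 and 6.61 in gai-YPet and 7.67 and 5.86 in the mutant at the stronger of its regions. GA3OX1, which makes the active hormone, had folds of 5.77 and 4.49 in gai-YPet and 3.00 and 2.44 in the mutant. CPS, which opens the pathway, had folds of 2.86 and 2.06 in gai-YPet and no peak in either mutant list. Among inactivating enzymes, ELA1, a cytochrome P450, had folds of 9.48 and 7.21 in gai-YPet and 7.64 and 5.17 in the mutant. GA2OX2, a gibberellin 2-oxidase, had folds of 3.77 and 3.92 in gai-YPet and 2.93 and 2.02 in the mutant.

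By share of genes, jasmonate and auxin followed among the hormone lists, while per Mb of eligible sequence gibberellin synthesis (284) stood above auxin. In the jasmonate list it was 11 of 31 genes (35.5%), with 347 regions per Mb of eligible sequence. JAZ proteins repress jasmonate responses and bind DELLAs, and JAZ1, JAZ3, JAZ5, JAZ6, JAZ9 and JAZ10 had regions. At JAZ10 the folds were 7.33 and 5.92 in gai-YPet and 6.02 and 4.20 in the mutant. LOX2, a lipoxygenase of jasmonate synthesis, had folds of 8.34 and 6.50 in gai-YPet and 7.92 and 4.91 in the mutant, while AOS, a later step, had 3.05 and 2.74 in gai-YPet and 2.32 and 1.84 in the mutant.

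In the auxin list 22 of 69 genes (31.9%) had a region, or 264 per Mb of eligible sequence. Synthesis, transport, perception and response were all represented. IAA4, an Aux/IAA repressor, had folds of 9.20 and 8.46 in gai-YPet and 7.26 and 5.15 in the mutant. GH3.3, which conjugates auxin to amino acids, had 5.66 and 6.02 in gai-YPet and 7.57 and 4.15 in the mutant. The receptor gene TIR1 was among the weakest, with folds of 2.01 and 2.69 in gai-YPet and no peak in the mutant lists.

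The other hormone lists stood lower. Brassinosteroid genes had a region in 7 of 28 cases (25%), abscisic acid and ethylene genes in 8 of 42 (19.0%) and cytokinin genes in 8 of 49 (16.3%). BKI1, an inhibitor of the brassinosteroid receptor, had folds of 6.99 and 5.95 in gai-YPet and 7.29 and 3.78 in the mutant. EIL1, a transcription factor of ethylene signalling in the EIN3 family, had 8.14 and 6.65 in gai-YPet and 5.42 and 4.61 in the mutant. PYL5, an abscisic acid receptor, had 7.71 and 6.56 in gai-YPet and 6.04 and 4.39 in the mutant. ARR7, a type-A response regulator that damps cytokinin signalling, had 6.22 and 4.95 in gai-YPet and 6.25 and 3.72 in the mutant.

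**Figure D4:**
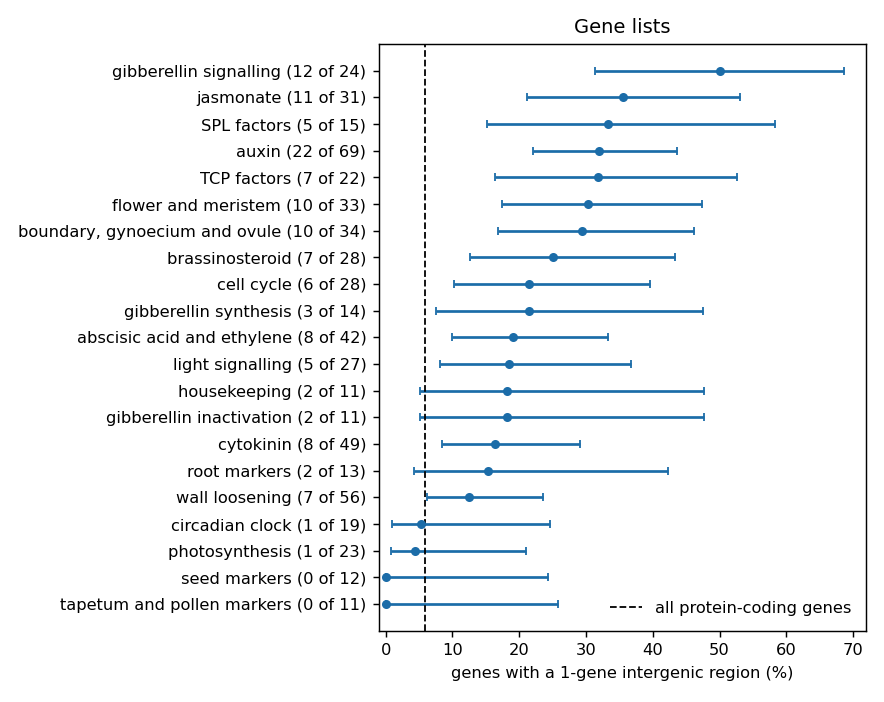
Percent of the genes of each list that have an intergenic region near them alone, with 95% Wilson intervals, and the share over all protein-coding genes (dashed line, 5.95%). Gibberellin signalling stands at 50%, and the lists of seed and of tapetum and pollen markers at 0.

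Developmental regulators of the inflorescence were listed too, and the share over all listed genes was 22.6%. The flower and meristem list had 10 of 33 genes (30.3%) with a region, and the boundary, gynoecium and ovule list 10 of 34 (29.4%). Per Mb of eligible sequence they had 253 and 229 regions, against 286 in the cell cycle list and 103 over all genes. CLV1, the receptor kinase that limits stem cell number in the shoot meristem, had folds of 7.81 and 5.23 in gai-YPet and 6.93 and 5.54 in the mutant. SEP4, a MADS-box factor of floral organ identity, had 5.43 and 5.46 in gai-YPet and 5.61 and 3.49 in the mutant. WUS, the stem cell regulator, had 3.73 and 3.54 in gai-YPet and 3.18 in mutant replicate 1, with no peak in mutant replicate 2. PNY, also called RPL, stands in both lists.

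Among gynoecium and ovule genes, PHB, a class III homeodomain factor of organ polarity, had folds of 7.67 and 7.44 in gai-YPet and 7.04 and 4.56 in the mutant. NGA4 and NGA3, B3-domain factors of the style, had 8.05 and 6.86 and 7.10 and 5.49 in gai-YPet, and 6.67 and 4.37 and 4.70 and 3.31 in the mutant. CUC2, the gene mutated in cuc2-1, had a region of 334 bp at 728 bp from it, with folds of 3.49 and 2.92 in gai-YPet. There the fold was 1.88 in mutant replicate 1 and replicate 2 had no peak. CUC2 was described for the mutation and not for its value.

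In families of DELLA partners, 5 of 15 SPL genes (33.3%) and 7 of 22 TCP genes (31.8%) had a region near them alone. SPL genes promote the change to flowering, and SPL8, SPL1 and SPL7 followed SPL4, with folds of 6.56, 5.88 and 6.78 in gai-YPet replicate 1 and of 5.11, 5.58 and 4.94 in replicate 2. All 5 SPL regions had a peak in every tagged list, as did 49.8% of all regions. The 4 named had strengths between 91.2 and 99.7, and in the top quintile of strength every member had a peak in all 4 lists. TCP14, a regulator of growth, had folds of 5.77 and 5.51 in gai-YPet and 5.72 and 2.80 in the mutant. Light signalling had 5 of 27 genes (18.5%), with PHYB, the red-light receptor, at 6.69 and 4.60 in gai-YPet and 6.21 and 3.61 in the mutant.

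Among genes of growth output, the cell cycle list had 6 of 28 genes (21.4%), and the strongest, CYCD3;3, a D-type cyclin, had folds of 5.14 and 5.11 in gai-YPet and 4.05 and 3.12 in the mutant. Wall-loosening expansin and xyloglucan endotransglucosylase genes had 7 of 56 (12.5%), and XTH31 had 5.48 and 5.07 in gai-YPet and 4.99 and 3.61 in the mutant. The circadian clock list had 1 of 19 genes, GI.

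Lists of seed, tapetum and pollen, photosynthesis, root and housekeeping genes were counted as well. Inflorescences hold buds and green tissue, so the tapetum and pollen list and the photosynthesis list do not stand for other tissues. No seed storage or embryo gene of 12 and no tapetum or pollen gene of 11 had a region, shares whose Wilson intervals reach 24.2% and 25.9%. Photosynthesis genes had 1 of 23, near LHCB1.1, a chlorophyll-binding protein of the antenna, with folds of 2.71 and 3.60 in gai-YPet. Root markers had 2 of 13, near CPC and SHR, and housekeeping genes 2 of 11, near TUB2 and GAPC2, the strengths of these 4 regions lying between 28.3 and 48.9. Per Mb of eligible sequence the housekeeping list had 344 regions, close to the jasmonate list, though from 2 regions only, root markers had 120 and photosynthesis genes 57.9. A count this small does not set these lists apart from the 5.95% over all genes. The peak lists hold no expression values, so the tissue label itself was not checked.

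Some of the regions are close to genes that make no protein. The summit lay inside a non-coding gene or pseudogene in 112 regions (6.53%), and 7.64% of the eligible bases lie in one. In 214 regions (12.5%) such a gene was nearer than the protein-coding gene, so the pairing by position is uncertain there. Within 1000 bp of a miRNA gene lay 9 regions, named after their values were seen. The strongest was 440 bp from MIR391, with folds of 10.2 and 6.85 in gai-YPet and 7.30 and 4.95 in the mutant. MIR166b and MIR166c, which target PHB and its relatives, had a region 330.5 and 431 bp away, with folds of 4.78 and 4.92 and of 2.62 and 2.67 in gai-YPet.

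In the cuc2-1 mutant most of these regions were found again. The mutant lists had no part in the choice of the members. Mutant replicate 1 had a peak at 1537 of the 1715 regions (89.6%), against 90.1% of all 5755 regions, and replicate 2 at 884 (51.5%), against 50% (2876 of all 5755). At least 1 mutant list had a peak at 1539 (89.7%, Wilson interval 88.2% to 91.1%, against 90.3%), both at 882 (51.4%, against 49.8%) and neither at 176 (10.3%, against 9.71%). These shares are near the background and show nothing particular to regions near 1 gene. The gap between the mutant replicates went with the lengths of their lists, 8193 and 3666 peaks, and its source was not tested.

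The share of regions found in the mutant followed their strength in gai-YPet. With all regions split into 5 quintiles of strength, in the upper 2 of them every member had a peak in mutant replicate 1. So did every other region there. In the weakest quintile 56.2% had one in replicate 1 and 4.04% in replicate 2. There, 130 of 297 members (43.8%, Wilson interval 38.2% to 49.5%) had no peak in either mutant list, against 34.4% of the other regions (31.3% to 37.7%). By class the shares in that quintile were 32.3% inside genes, 30.5% between close genes and 40.1% far from genes, so the members' share lay closest to that of the far regions. In the next quintile the shares were 11.3% and 9.31%, with overlapping intervals. Regions are not replicates, and these intervals describe the lists, not the spread between plants.

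**Figure D5:**
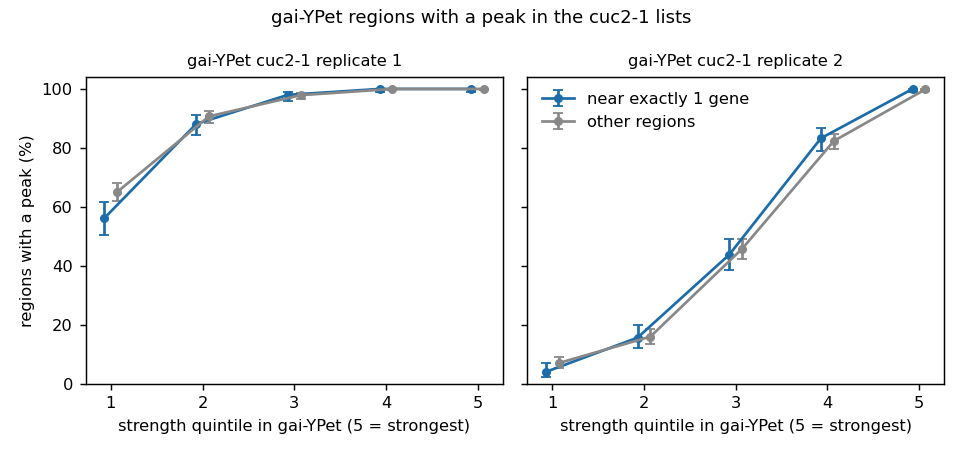
Percent of gai-YPet regions with a peak in each gai-YPet cuc2-1 list (left, replicate 1; right, replicate 2) by quintile of strength in gai-YPet, for regions near exactly 1 gene (blue) and all other regions (grey), with 95% Wilson intervals. In replicate 1 the members run from 56.2% in the weakest quintile, below the 65.1% of the others, and in replicate 2 from 4.04%.

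The members without a mutant peak were of middling or low strength. The strongest of the 176 was near PAO2, a polyamine oxidase gene, with folds of 3.57 and 3.54 in gai-YPet and a strength of 64.5. LACS1, a long-chain acyl-CoA synthetase of cuticle lipid synthesis, had folds of 3.39 and 3.79, and BBX29, a B-box zinc-finger protein, had 3.25 and 3.60. BBX29 had another member region with a strength of 65.6. That is above PAO2, so this other region did have a mutant peak. ESR1, an AP2-type factor of shoot regeneration and organ initiation, had 3.06 and 3.42. BON2, a copine, had 2.96 and 3.67. AT2G24360, AT1G44770 and AT1G20370 were the others among the 8 strongest. All 8 lay below the median strength of 65.9 over all members.

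Seen from the mutant, the picture was similar. Both mutant lists shared 3187 nuclear regions off the control peaks, and 971 of these (30.5%) met the same gene rule. Of the 971, 884 (91.0%) overlapped a member, which were 850 of the 1715 members (49.6%), and 956 (98.5%) overlapped a gai-YPet region of any class, against 96.9% of all 3187. No peak in either gai-YPet list was found at 7 (0.721%), against 1.29% of all 3187. Both shares are near the background. Over single lists, the share of nuclear peaks near exactly 1 gene was 29.8% and 26.7% in gai-YPet and 26.9% and 29.3% in the mutant. The values of the genotypes overlap. The means were 28.2% ± 2.25 and 28.1% ± 1.69 (SD, n = 2 each), a difference of -0.15 percentage points (two-sided exact permutation p = 1, where the smallest possible with 2 lists against 2 is 0.333, so no difference could be called). In the untagged lists the share was 3.37% (6 of 178 peaks) and 6.05% (24 of 397).

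Rank order was compared in the 2867 regions with a peak in all 4 tagged lists, 882 of them members. A region was called when both mutant ranks lay on the same side of both gai-YPet ranks. Ranks were lower in the mutant at 156 members (17.7%, against 15.8% of all such regions) and higher at 125 (14.2%, against 17.6%). The median shift of the members was -0.63 rank percentiles, against 0.28 over all such regions. No test was made of these shares, since regions are not replicates.

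The largest called shifts to lower ranks were led by ORG1. It had rank percentiles of 83.4 and 87.4 in gai-YPet and 74.8 and 24.6 in the mutant. ARF8, an auxin response factor of stamen and fruit growth, had 67.6 and 63.5 in gai-YPet and 52.3 and 9.38 in the mutant, and XTH28 59.9 and 45.5 against 31.7 and 11.8. FdC2, a ferredoxin-like protein, went from 78.6 and 73.7 to 58.0 and 32.7. In all 4 the rank in mutant replicate 2, the shorter list, lay farther from gai-YPet than that in replicate 1. At ORG1 the summit of mutant replicate 2 lay near 21693200, against 21692800 in the other tagged lists. Its rank of 24.6 is thus from a different position within the merged region.

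Upward, ATBFRUCT1, a cell wall invertase, had ranks of 23.7 and 15.6 in gai-YPet and 41.7 and 52.3 in the mutant. TAF5, a subunit of the general transcription factor TFIID, had 33.3 and 24.6 in gai-YPet and 60.5 and 49.5 in the mutant. FAP3, a plastid fatty-acid-binding protein, had 7.95 and 17.8 in gai-YPet and 19.0 and 61.0 in the mutant, and AT2G27775 had 55.2 and 53.3 against 75.9 and 84.1. Among hormone genes GA3OX1 had ranks of 64.4 and 41.9 in gai-YPet and 18.8 and 32.5 in the mutant, both lower. At the stronger GA20OX2 region they were 94.4 and 93.8 in gai-YPet and 94.5 and 96.8 in the mutant, both higher by a small margin. The weaker GA20OX2 region had no peak in mutant replicate 2 and was not ranked. The genotypes do not overlap at either ranked region, but 15.8% of all such regions were called lower and 17.6% higher. Single regions were not tested.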

How the data were processed

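Chromatin of inflorescences was immunoprecipitated with an antibody to GFP in 3 genotypes with 2 replicates each. Per the submitters' processing notes the tools were MACS2 and bedtools, and also cutadapt, SAMtools and Bowtie2, in no stated order, and the build was TAIR10. Versions and settings are not stated there. Each deposited peak has 4 values made by the authors: a score, a ratio (the fold over background) and 2 values on the −log10 scale, for the p-value and the q-value. The score was 10 times the −log10 q, truncated, in every line. The ratio and −log10 columns deposited for the second replicates had lost their decimal points, which were put back before the last 5 digits. Lists give no reads, so depth is unknown.

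From these lists peaks of the gai-YPet replicates that overlapped by at least 1 bp were merged, regions touching a Ler peak were removed, and the summit was the mean over the replicates of the summit of the highest-scoring peak. Genes came from a RefSeq table of assembly TAIR10.1, taken to share nuclear positions with TAIR10; its coordinates are not printed. Ranks and percentiles used q-values. The 2 tagged genotypes were compared over lists by an exact permutation test. Wilson intervals (95%) treat regions as independent draws and cover counting only. Region building was tested on simulated lists. The software was scipy 1.17.1, numpy 2.4.6, matplotlib 3.10.9 and pandas 2.3.3 under Python 3.11.15.

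The members and gene lists were chosen with earlier results of these data known. Named genes were the 12 strongest members, the 8 strongest without a mutant peak, the 5 genes with most regions (ties by strength), up to 4 strongest of each list, the 4 largest called rank shifts each way, the regions next to the 1000 bp limit and the weakest. IDD, JAZ, GID1C, RGL1, AOS, TIR1 and WUS were added as pathway members from the same lists. The side of the gene, promoter motifs and sequences were planned and not analysed here, because the table used has no strand and no sequence.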

Additional observations from a re-analysis of the deposited data

How the results depend on the processing

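The count of 1715 regions near exactly 1 gene became 1075 when peaks had to overlap by 50% both ways, 982 with only the stronger 50% of peaks per list and 933 with tagged lists of equal length, and ran from 1715 to 2982 when each list was left out, 2982 being the count without gai-YPet replicate 1. The 128 listed genes became 77, 83 and 78 under the same 3 settings, and 128 to 184 with each list left out. The share of members with a mutant peak (89.7%) ran from 51.5% to 89.8% with each list left out, the low values being 51.5% without gai-YPet cuc2-1 replicate 1 and 58.4% without gai-YPet replicate 1. The share of members with lower mutant ranks (17.7%) ran from 17.7% to 37.6% with each list left out, and the share over all regions in the same fits from 15.8% to 34.2%, since fewer ranks have to fall in order. The genotype difference in the share of peaks near 1 gene (-0.15 points) was 0.803 with the 50% overlap and 0.373 with the stronger peaks, and ran from -1.74 to 1.44 with each list left out. It was 1.44 without gai-YPet replicate 1 and 1.05 without gai-YPet cuc2-1 replicate 1, and no p was below 0.333. The cause was not tested. The median distance of 420 bp became 199 bp with a gene window of 500 bp and 799 bp with one of 2000 bp, which follows from the window. These settings for the distance were chosen after seeing the data. Of 1275 values of strength over 96 named genes, 1263 stayed within the spread between replicates. A value exists only where the gene still had a member region, so genes that left the class under a setting are not counted. DREB1A, for example, had no value with the 50% overlap, with the gene window of 2000 bp or with non-coding genes included. The ranks were set once on the full lists, so these settings could hardly move the strength of a region beyond that spread. This count is therefore no test of stability. The labels number the replicates without saying that the numbers pair plants, so they were not taken to do so. Same-numbered replicates did not deviate together (r = 0.0362 over 2867 regions), which cannot show whether plants were paired. With the replicate block the difference was -0.149 points (exact sign-flip permutation over 2 pairs, two-sided p = 1). The settings planned for the side of the gene and the promoter motifs were not run.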

Other observations

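Beyond the listed pathways, gene families recognised by symbol differed in how many genes had an intergenic region near them alone. SAUR genes, small auxin-induced growth genes, had one in 20 of 80 cases (25%, Wilson interval 16.8% to 35.5%), AP2/ERF factors in 11 of 52 (21.2%), homeobox factors in 17 of 81 (21.0%) and aquaporin genes in 10 of 54 (18.5%), against 5.95% of all genes. MYB factors had 20 of 132 (15.2%), WRKY factors 10 of 72 (13.9%), NAC factors 11 of 100 (11.0%), bHLH factors 3 of 31 (9.68%), MADS-box factors 9 of 98 (9.18%), cytochrome P450 genes 21 of 239 (8.79%), UDP-glycosyltransferase genes 5 of 64 (7.81%) and peroxidase genes 2 of 35 (5.71%). Genes without a family symbol are missed. Among bHLH genes PIF6 and BEE2, which had regions, were not counted, so the bHLH values cover only part of that family. The eligible sequence also differs between families, so the order changes per Mb of it. There the counts were 301 for SAUR, 237 for aquaporin, 190 for AP2/ERF, 188 for homeobox, 174 for UDP-glycosyltransferase, 144 for WRKY, 136 for MYB, 117 for NAC, 114 for cytochrome P450, 98.3 for MADS-box, 82.5 for bHLH and 80.8 for peroxidase genes, against 103 over all genes.

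Single members were strong. The plasma membrane aquaporin gene PIP1B had folds of 9.36 and 6.81 in gai-YPet and 6.03 and 5.31 in the mutant, and the vacuolar aquaporin gene DELTA-TIP had 10.2 and 7.46 in gai-YPet and 6.14 and 4.097 in the mutant. MYB77, a factor of the auxin response, had 7.90 and 6.64 in gai-YPet and 4.99 and 3.87 in the mutant. HB51, a homeodomain-leucine zipper gene also known as LMI1, had 6.98 and 6.81 in gai-YPet and 6.11 and 4.42 in the mutant. The families were chosen with these data known, and no test was made of them.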
